A study of Mus musculus with 15 samples.

Results

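The autophagy machinery was taken as 35 named genes, found by their symbols among the 24421 gene symbols of the authors' deposited table at each time. All 35 were present under the names used here, and all 35 had an adjusted p at both times. The samples were RNA-seq libraries of an established line from adult bile ducts of C57BL/6 mice, with the labelled genotype ITR-CreERT2;Klf5flox/flox in every sample. Klf5 is a zinc finger transcription factor of the Krüppel-like family. Its floxed Klf5 alleles can be cut by a Cre recombinase that 4-OH tamoxifen activates, and cells were given that drug or ethanol, the solvent control. The 12 h comparison set 4 tamoxifen libraries against 3 of ethanol, and the 24 h comparison 4 against 4. The ethanol cells carry the same alleles, so Klf5 loss, Cre activity and the drug itself cannot be told apart in this contrast. The labels do not spell out which promoter drives the recombinase, how many animals or clones the line comes from, or whether replicates were separate cultures, so the spread between libraries on which each p rests may be a technical one. According to the title the structures were grown in vitro, whereas the design text places them in vivo, and which of these was sampled is unsettled.

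Autophagy delivers parts of the cytoplasm to the lysosome inside a double membrane. A kinase complex around ULK1 starts the process, a lipid kinase complex with Beclin 1 marks the membrane, ATG9, ATG2 and WIPI proteins help it grow, and a chain of conjugating enzymes attaches ATG8 proteins (the LC3 and GABARAP families) to it. Receptors such as p62 bind both the cargo and the ATG8 proteins. In the liver and its ducts, autophagy is known for turning over damaged organelles and protein aggregates, and p62 accumulates when that turnover is blocked.

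At 24 h, 6 of the 35 genes passed the threshold, which was 0.05 for the adjusted p of the authors' Wald test. Rb1cc1, Wipi1, Vmp1 and Nbr1 rose, and Gabarapl2 and Optn fell. These changes were small: the tamoxifen level lay between 81.8% (Gabarapl2) and 138% (Rb1cc1) of the ethanol level. At 12 h no member passed the threshold. The share of members called at 24 h, 17.1%, stands beside 12.4% of all genes for which the authors' deposited table gives an adjusted p, and beside 13.8% of those whose mean normalised count was 50 or more.

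The promoters of 4 of the 6 genes are printed because these genes changed in opposite directions while their start regions can be read side by side. Each line holds the 250 bases before the RefSeq start site on GRCm38.p6, 5′ to 3′ on the gene's strand. Capitals mark matches to GGGNGNGG, a GC-rich motif of the kind that Krüppel-like factors bind, or to its reverse complement CCNCNCCC. Gabarapl2 and Optn fell at 24 h, and Nbr1 and Vmp1 rose.
Gabarapl2, chr8:111940453-111940702, forward strand: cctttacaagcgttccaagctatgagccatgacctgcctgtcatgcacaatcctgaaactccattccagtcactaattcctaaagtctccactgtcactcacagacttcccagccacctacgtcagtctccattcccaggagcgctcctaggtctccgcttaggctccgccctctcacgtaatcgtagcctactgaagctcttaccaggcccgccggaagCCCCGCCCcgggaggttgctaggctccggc
Optn, chr2:5064118-5064367, reverse strand: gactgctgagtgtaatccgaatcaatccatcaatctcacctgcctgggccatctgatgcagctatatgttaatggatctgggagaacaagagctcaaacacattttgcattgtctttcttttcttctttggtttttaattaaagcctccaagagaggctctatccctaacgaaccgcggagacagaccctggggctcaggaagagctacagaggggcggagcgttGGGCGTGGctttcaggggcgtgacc
Nbr1, chr11:101551857-101552106, forward strand: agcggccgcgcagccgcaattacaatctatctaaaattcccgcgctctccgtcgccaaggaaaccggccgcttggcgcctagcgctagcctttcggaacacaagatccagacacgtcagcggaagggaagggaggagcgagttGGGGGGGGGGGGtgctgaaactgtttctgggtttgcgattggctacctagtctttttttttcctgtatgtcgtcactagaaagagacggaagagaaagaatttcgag
Vmp1, chr11:86683837-86684086, reverse strand: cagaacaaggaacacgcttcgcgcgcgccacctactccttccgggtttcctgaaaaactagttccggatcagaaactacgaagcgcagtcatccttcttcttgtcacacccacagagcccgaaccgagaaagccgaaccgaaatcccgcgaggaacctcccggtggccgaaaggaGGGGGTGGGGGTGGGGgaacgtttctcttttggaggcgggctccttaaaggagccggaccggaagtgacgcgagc

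The motif matched 1 time before Gabarapl2 and 1 time before Optn. It matched 5 times before Nbr1 and 4 times before Vmp1, where the matches overlap in a single G-rich stretch. Wipi1, whose RefSeq start lies 578 bases inside the GENCODE gene so that its window is not printed, held 4 matches. Windows of Atg2b, Atg4b and Atg4d, which were not called, held 4 matches as well, so the number of matches is given as a description and not by direction of change. Of the 35 members, 29 were found in the RefSeq promoter table. At least 1 match stood in 22 of these 29 windows (75.9%), beside 45.9% of all 32851 promoter windows of the same length, and the median GC content was 59.2% in the members and 52.4% over all windows. The sets are unlike: members have 1 window per gene, nearest its annotated start. All windows cover 27025 genes, with further start sites and without regard to expression. The motif CACGTG, the core of the E-box bound by TFEB, a transcription factor of lysosomal and autophagy genes, was searched as well and reads the same on both strands. It stood in 3 of the 29 windows (10.3%), those of Atg3, Atg5 and Atg7, and in 6.02% of all windows. The RefSeq start used for Atg7 lies 27999 bases inside the GENCODE gene, so its window is not at the annotated gene start. The same holds for Atg4b by 3405 bases, Atg14 by 2215 and Wipi2 by 1886. None of the 5 called genes with a window held it. A match is a stretch of letters and was not tested as a binding site.

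Klf5, the targeted gene, checks the labels. In the authors' deposited table it stood at -1.29 on the log2 scale of tamoxifen over ethanol at 12 h (SE 0.23, adjusted p = 9.75e-06 in the Wald test) and at -1.72 at 24 h (SE 0.08, adjusted p = 9.51e-107 in the Wald test). Of 8 biliary markers, 6 had a mean normalised count of 50 or more at each time, among them Krt19 and Spp1, while Epcam and Onecut1 had low mean levels in the authors' deposited table at 12 h, of 15.7 and 3.55. Biliary markers were called in 1 case at 12 h and in 3 at 24 h. The fibroblast list (6 genes) and the endothelial list (5 genes) had summed mean levels of at most 30.0 and 2.40 normalised counts in any group. Of the genes on these lists, Col1a2, Col3a1, Dcn, Lrat, Cdh5 and Stab2 were at 0 at both times. Col1a1 carried the fibroblast sum, with means of 29.6 at 12 h and 10.8 at 24 h. Pdgfrb, Pecam1, Kdr and Tek had means of at most 1.46. Immune markers (6 genes) summed to between 73.7 and 82.1 normalised counts, nearly all from Cd68, with Adgre1 and Cd3e at 0. Hepatocyte markers (6 genes) summed to 1822 in ethanol and 2119 in tamoxifen at 12 h and to 704 and 742 at 24 h, carried by Apoa1 and Ttr, with Cyp3a11 at 0 at both times. None of the genes in these other lists was called at either time, and their part in the results was not tested. The tables sum to 13.9 M normalised counts per library on average at 12 h and to 11.8 M at 24 h.

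The files give a mean over all libraries, a fold and its standard error, and no value per library. The mean levels in ethanol and in tamoxifen given below are therefore those implied by the mean normalised count, the fold and the number of libraries per group, and the SE carries the spread between libraries. The 95% intervals take the log2 fold as normally distributed. Fewer cells of a type and less RNA per cell cannot be told apart in such bulk libraries.

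Levels, set per kb of annotated exon so that genes can be compared, spanned a wide range (the plot of levels by gene). Sqstm1, which encodes the receptor p62, had the highest level, 5992 normalised counts per kb at 12 h and 12178 at 24 h. Gabarap, an ATG8 protein gene, came next with 3276 and 2492 per kb. Vmp1, a membrane protein of the endoplasmic reticulum needed for the growing membrane, had 924 and 886 per kb, and Gabarapl1, a close relative of Gabarap, 768 and 853 per kb. These 4 genes held the first 4 places at both times. The lowest levels were those of the protease genes Atg4a, with 11.2 and 7.33 per kb, and Atg4c, with 21.6 and 26.4 per kb. Among the proteases, which trim ATG8 proteins, the higher levels were those of Atg4b, with 125 and 108 per kb, and Atg4d, with 91.5 and 52.9 per kb. Of its exon bases, Atg4d shares 19.3% with Kri1 on the opposite strand, and the library kit does not mark the strand, so reads of the pair cannot be told apart there. Kri1 had means of 1205 and 1005 normalised counts in the authors' deposited table, and Atg4d 664 and 384, so the level of Atg4d is uncertain.

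**Figure D1:**
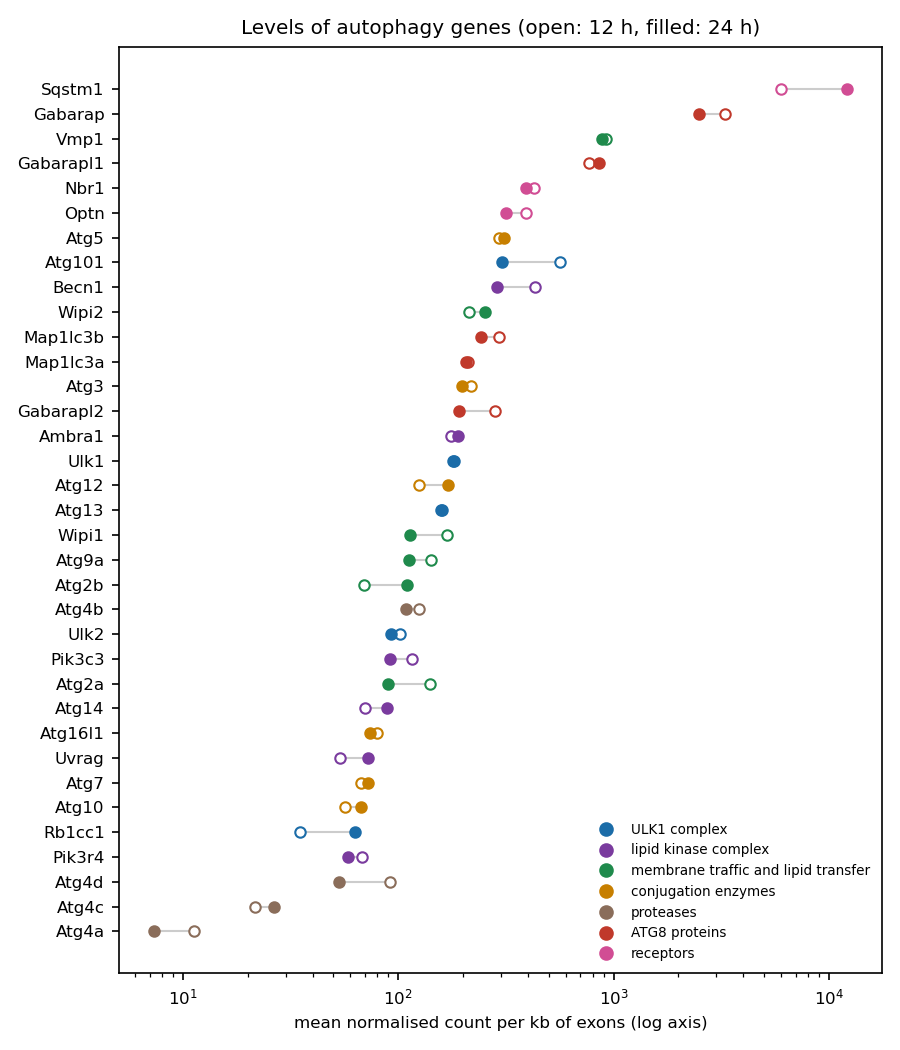
Mean normalised count per kb of exons (log axis) of each of the 35 autophagy genes, at 12 h (open) and 24 h (filled), coloured by role; each point is a mean over all libraries of a time, with no error. Sqstm1 and Gabarap lie highest and Atg4a lowest at both times.

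As a share of all normalised counts, the 35 genes made up 0.432% at 12 h and 0.654% at 24 h. Most of that difference lay in Sqstm1, with 0.145% of the counts at 12 h and 0.345% at 24 h. At 12 h the SE of the Sqstm1 fold was 4.18 times that of genes of similar mean. The 12 h share of Sqstm1, and with it that of the 35 genes, is therefore uncertain. The share of Rb1cc1 was 0.00370% at 12 h and 0.00782% at 24 h, and that of Atg2b, a lipid transfer protein, 0.00675% and 0.0125%. The share of Atg101, a subunit of the ULK1 complex, was 0.00646% and 0.00409%. The times were normalised in separate tables with separate libraries, so these shares have no test, and time cannot be told apart from any difference in how the sets of libraries were made.

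The 12 h comparison addresses the early response. None of the 35 members passed the threshold, against 0.943% of all genes for which the authors' deposited table gives an adjusted p (0.215% higher and 0.728% lower) and 1.1% of those whose mean normalised count was 50 or more. The smallest adjusted p among members was 0.82 in the Wald test. At an unadjusted p under 0.05 there was 1 member, beside 4.9% of all genes with a p. It was Optn, the gene of the receptor optineurin, which links ubiquitin-tagged bacteria and mitochondria to ATG8 proteins. Optn had an implied mean of 1655 normalised counts in ethanol and 1330 in tamoxifen at 12 h. Its log2 fold in the authors' deposited table was -0.32 (SE 0.16, unadjusted p = 0.0427 in the Wald test). After Optn, the smallest unadjusted p-values belonged to Atg3, the enzyme that transfers ATG8 proteins to lipid, and to Nbr1. In the authors' deposited table, Atg3 stood at -0.25 (SE 0.14, unadjusted p = 0.0789 in the Wald test). Nbr1 stood at 0.21 in the authors' deposited table (SE 0.15, unadjusted p = 0.16 in the Wald test).

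Over the members the 12 h log2 folds ranged from -0.36 (Atg4a) to 0.30 (Atg4c) with a median of 0.03, beside a median of -0.005 over all genes at a mean normalised count of 50 or more. Their median size regardless of sign was 0.098, and 0.095 over those genes. A call at 12 h needed a fold 3.50 times its SE. At the members' SEs, whose median was 0.15, this means a log2 fold of 0.52 in the median and of at least 0.33 (Gabarapl1). The folds that the 6 called members showed at 24 h were all smaller than what each of them would have needed at 12 h, 0.39 to 0.76. The absence of calls at 12 h therefore does not show that these genes were unchanged then. The 95% interval of 24 of the 35 members lay within 0.5 of 0 on the log2 scale at 12 h, and 32 of 35 did so at 24 h.

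**Figure D2:**
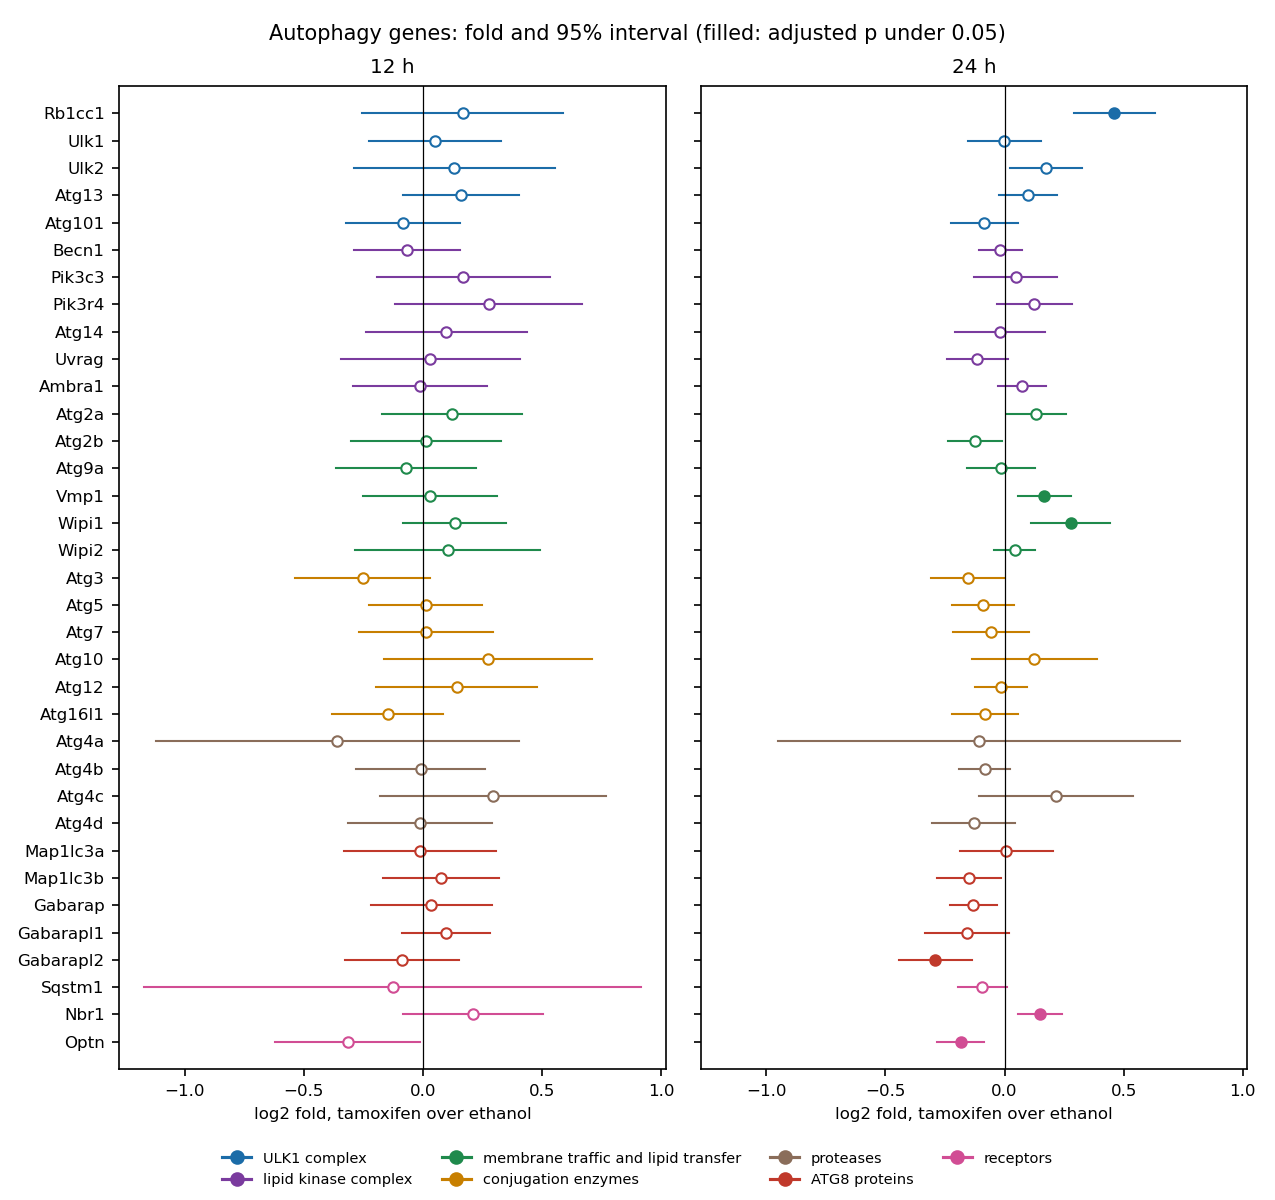
Log2 fold of tamoxifen over ethanol (x axis) for each autophagy gene at 12 h (left) and 24 h (right), ordered and coloured by role; points are the authors' folds, lines 95% intervals, and filled points passed an adjusted p under 0.05. No point is filled at 12 h, and 6 are filled at 24 h, with Rb1cc1 farthest to the right and Gabarapl2 farthest to the left of the filled points.

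At 24 h the ULK1 complex, which starts autophagy, held the largest change of the 35 members. Rb1cc1 encodes FIP200, the long scaffold on which the complex assembles. It lay on chromosome 1 from 6206197 to 6276648 (GRCm38, forward strand). Its implied mean was 779 normalised counts in ethanol and 1073 in tamoxifen. In the authors' deposited table, Rb1cc1 rose by 0.46 on the log2 scale (SE 0.09, adjusted p = 4.33e-06 in the Wald test). That is 138% of the ethanol level, with a 95% interval of 122% to 155%. Its SE was 1.36 times that of genes of similar mean at both times. Rb1cc1 shares 7.60% of its 50-base transcript words with other gene models.

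The other subunits of the ULK1 complex were not called at 24 h. Ulk2, a kinase related to ULK1, had implied means of 520.8 and 587.7 normalised counts and stood at 0.17 in the authors' deposited table (SE 0.08, adjusted p = 0.13 in the Wald test). For Atg13, the adaptor that joins the kinase to FIP200, the authors' deposited table gave 0.10 (SE 0.06). Ulk1 itself stood at 99.97% of the ethanol level, with a 95% interval of 89.9% to 111%. For Atg101, the partner of ATG13, the authors' deposited table gave -0.08 (SE 0.07). So 1 of the 5 members rose and 4 were not called.

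None of the 6 genes of the lipid kinase complex passed the threshold at either time. Their 24 h intervals were narrow, all within -0.24 and 0.28 on the log2 scale. Becn1 (Beclin 1) stood at 98.8% of the ethanol level, with a 95% interval of 92.9% to 105%. Pik3c3, the catalytic subunit, stood at 103% (91.5% to 117%) and Pik3r4, its regulatory partner, at 109% (97.7% to 122%). Uvrag, the subunit of the complex at endosomes, stood at 92.4% (84.6% to 101%), Atg14, the subunit that directs the complex to autophagy, at 98.8% (86.6% to 113%), and Ambra1, a regulator of Beclin 1, at 105% (98.1% to 113%). Of its exon bases, Becn1 shares 43.9% with Cntd1 on the opposite strand, whose mean in the authors' deposited table was at most 5.53 normalised counts, and Uvrag shares 17.6% with Gm45187.

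Among the 6 genes of membrane traffic and lipid transfer, 2 rose at 24 h, none fell and 4 did not pass. Wipi1 encodes a protein that reads the lipid mark on the growing membrane. It lay on chromosome 11 from 109573331 to 109611967 (GRCm38, reverse strand). Its implied mean at 24 h was 453 normalised counts in ethanol and 549.6 in tamoxifen. Wipi1 rose by 0.28 in the authors' deposited table (SE 0.08, adjusted p = 0.0128 in the Wald test), to 121% of the ethanol level (95% interval 108% to 136%). Its relative Wipi2, at 2656 normalised counts on average in the authors' deposited table, stood at 103% (97.1% to 109%).

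Vmp1 lay on chromosome 11 from 86583865 to 86683836 (GRCm38, reverse strand). Its implied mean at 24 h was 3225 normalised counts in ethanol and 3620 in tamoxifen. Vmp1 rose by 0.17 in the authors' deposited table (SE 0.06, adjusted p = 0.0314 in the Wald test), to 112% of the ethanol level (95% interval 104% to 121%). The lipid transfer genes stood on opposite sides of 0 without passing the threshold, in the authors' deposited table: Atg2a was at 0.13 (SE 0.06), and Atg2b at -0.12 (SE 0.06) from implied means of 1541 and 1414. Atg9a, the scramblase carried in vesicles to the growing membrane, stood at 98.9% (89.7% to 109%). Of its exon bases, Atg9a shares 31.8% with another gene model on the same strand, so its counts are uncertain.

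The conjugation enzymes and the ATG4 proteases, 10 genes in all, held no call at 24 h, and 1 had an unadjusted p under 0.05. That was Atg3, at -0.15 in the authors' deposited table (SE 0.08, adjusted p = 0.20 in the Wald test). The other conjugation genes stood between 93.9% (Atg5, part of the complex that directs lipid attachment) and 109% (Atg10) of the ethanol level. Atg7, the activating enzyme of both conjugation chains, stood at 96.2% (95% interval 86.1% to 107%), Atg12, the ubiquitin-like protein joined to ATG5, at 99.0% (91.9% to 107%) and Atg16l1, the partner of that conjugate, at 94.6% (85.9% to 104%). Among the proteases, Atg4b stood at 94.4% (87.6% to 102%), Atg4d at 91.4% (81.0% to 103%), and the low Atg4c at 116% (93.0% to 145%). Kri1, which overlaps Atg4d, had a 24 h log2 fold of -0.14 (SE 0.07) in the authors' deposited table. Atg4a, with a mean normalised count of only 19.5 and a log2 fold of -0.11 (SE 0.43) in the authors' deposited table, had an interval of 51.7% to 167%. Of its 50-base transcript words 51.2% also occur in transcripts of other genes, its pseudogene Atg4a-ps among them, so its level is uncertain.

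The ATG8 proteins, which are attached to the membrane and bind the receptors, held 1 fall, no rise and 4 genes that did not pass at 24 h. Gabarapl2, also called GATE-16, lay on chromosome 8 from 111940703 to 111953612 (GRCm38, forward strand). Its implied mean at 24 h was 488 normalised counts in ethanol and 399 in tamoxifen. Gabarapl2 stood at -0.29 in the authors' deposited table (SE 0.08, adjusted p = 0.00368 in the Wald test), 81.8% of the ethanol level (95% interval 73.5% to 91.0%). Of its 50-base transcript words, 12.2% also occur in transcripts of other genes, among them Gm3724 and Gm6051, so part of its count is uncertain.

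Of the ATG8 genes that were not called, 3 had negative folds at 24 h and Map1lc3a lay at 0.01 (SE 0.10) in the authors' deposited table. Gabarap had an implied mean of 4804 normalised counts in ethanol and 4388 in tamoxifen, and a log2 fold of -0.13 in the authors' deposited table (SE 0.05, adjusted p = 0.0682 in the Wald test). Map1lc3b, which encodes LC3B, the usual marker protein of autophagosomes, stood at -0.15 in the authors' deposited table (SE 0.07, adjusted p = 0.16 in the Wald test). Gabarapl1 stood at -0.16 in the authors' deposited table (SE 0.09, adjusted p = 0.28 in the Wald test). Its SE was 1.65 times that of genes of similar mean at 24 h and 0.72 times at 12 h, and 28.3% of its exon bases are shared with 1700101I11Rik on the opposite strand, which the authors' deposited table lists at means of 0.99 and 1.62 normalised counts.

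The receptors moved in opposite directions at 24 h: Nbr1 rose, Optn fell and Sqstm1 was not called. Nbr1 encodes a receptor of ubiquitinated aggregates and peroxisomes. It lay on chromosome 11 from 101552149 to 101581951 (GRCm38, forward strand). Its implied mean was 2557 normalised counts in ethanol and 2836 in tamoxifen. Nbr1 rose by 0.15 in the authors' deposited table (SE 0.05, adjusted p = 0.0188 in the Wald test), to 111% of the ethanol level (95% interval 104% to 118%).

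Optn lay on chromosome 2 from 5020642 to 5064051 (GRCm38, reverse strand). Its implied mean at 24 h was 1270 normalised counts in ethanol and 1118 in tamoxifen. Optn stood at -0.18 in the authors' deposited table (SE 0.05, adjusted p = 0.00483 in the Wald test), 88.0% of the ethanol level (95% interval 82.2% to 94.3%). Its 12 h value, 80.4% (65.0% to 99.3%), lay on the same side.

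Sqstm1, by far the most abundant of the 35 transcripts, had an implied mean of 42188 normalised counts in ethanol and 39553 in tamoxifen at 24 h. Its level in tamoxifen was 93.8% of that in ethanol (95% interval 87.4% to 101%), with an adjusted p of 0.26 in the Wald test in the authors' deposited table. At 12 h its implied means were 21132 and 19344, and the SE of its log2 fold was 0.53 in the authors' deposited table, 4.18 times that of genes of similar mean (the plot of standard errors). The 95% interval at 12 h therefore ran from 44.4% to 189%. Of 10320 genes at or above a mean normalised count of 50 at 12 h, 53 (0.514%) had an SE at least 4 times that of similar genes, and Sqstm1 was the 1 member among them. At 24 h its SE was 1.07 times that of similar genes. Whether this spread lay in single libraries or across all 7 at 12 h cannot be read without values per library. Sqstm1 shares 17.3% of its exon bases with Mrnip on the opposite strand.

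**Figure D3:**
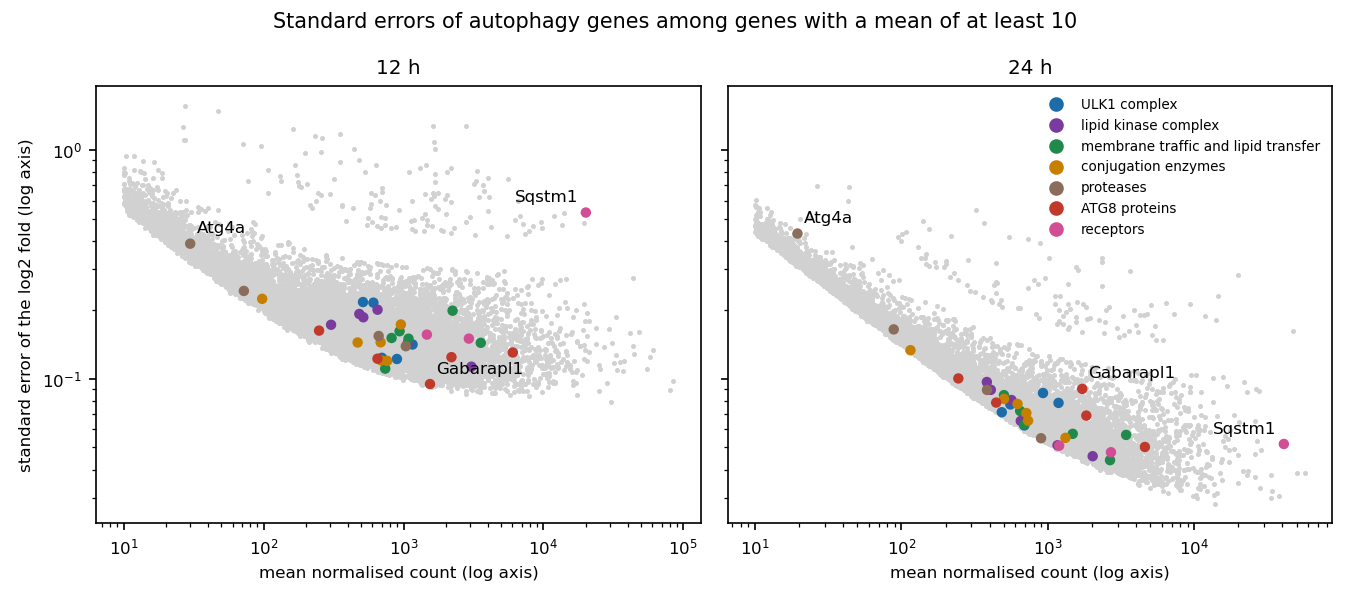
Standard error of the log2 fold against the mean normalised count (both log axes) at 12 h (left) and 24 h (right); grey points are all genes with a mean of at least 10, coloured points the autophagy genes by role. Sqstm1 lies far above genes of similar mean at 12 h and among them at 24 h.

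In all, 14 members had a positive and 21 a negative log2 fold at 24 h. The median was -0.02, beside -0.004 over all genes at a mean normalised count of 50 or more, and the median size regardless of sign was 0.114, beside 0.090. At an unadjusted p under 0.05 there were 12 of the 35 members, 6 higher and 6 lower, beside 18% of all genes with a p. That 18% covers genes of any mean, and the share at a mean normalised count of 50 or more was not computed. By direction, at the adjusted threshold, 4 of 35 members rose, beside 5.9% of all genes with an adjusted p, and 2 of 35 fell, beside 6.52%. For the 28 members other than Atg4a that were not called, the 95% intervals stayed between 79.3% and 145% of the ethanol level.

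**Figure D4:**
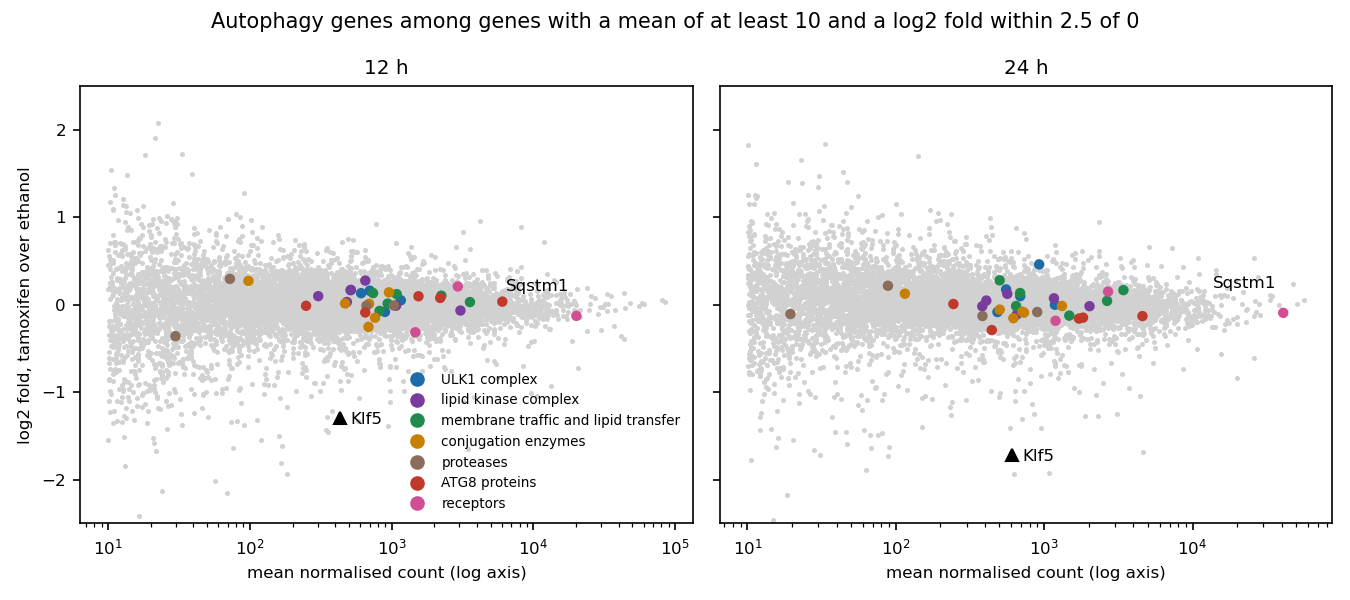
Log2 fold of tamoxifen over ethanol against the mean normalised count (log axis) at 12 h (left) and 24 h (right); grey points are all genes with a mean of at least 10 and a fold within the plotted range, coloured points the autophagy genes by role, and the triangle is Klf5. The autophagy genes lie within the grey band at both times, far from Klf5 at -1.29 and -1.72.

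The folds at the times were then compared with each other, gene by gene. None of the 35 members differed between 12 h and 24 h at an adjusted p under 0.05 in the Wald test of the difference. That test called 0.0134% of 14981 genes. At an unadjusted p under 0.05 there were 0 members, beside 1.64% of those genes. With no true difference and errors that hold, a share near 0.05 would lie there. The test was therefore cautious over these genes, which may have any mean, and the absence of calls does not show equal folds. The smallest p belonged to Gabarapl1, whose fold was lower at 24 h than at 12 h by a log2 difference of -0.25 (SE 0.13, unadjusted p = 0.0511 in that Wald test, adjusted p = 0.9999). For Rb1cc1, at 0.17 (SE 0.22) at 12 h in the authors' deposited table, the difference was 0.29 (SE 0.23). For the other called members it was 0.15 (SE 0.14) for Wipi1, 0.14 (SE 0.15) for Vmp1, -0.06 (SE 0.16) for Nbr1, -0.20 (SE 0.15) for Gabarapl2 and 0.13 (SE 0.16) for Optn. At 12 h the folds in the authors' deposited table were 0.13 for Wipi1 (SE 0.11), 0.03 for Vmp1 (SE 0.14) and -0.09 for Gabarapl2 (SE 0.12). The sign of the fold was the same at both times in 6 of the 6 called members and in 23 of all 35 (65.7%), beside 68.9% of 9861 genes at 50 or more at both times. The 6 were picked by their 24 h call, and the share among all genes called at 24 h was not computed.

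Beside the core machinery, 66 related genes were examined: upstream kinases and brakes, cofactors, further receptors, fusion factors and transcription factors. At 24 h 6 rose, 7 fell and 53 did not pass. So 19.7% were called, beside 12.4% of all genes and 13.8% of those whose mean normalised count was 50 or more. At 12 h none was called, beside 0.943% of all genes, and 6 of the 66 had an unadjusted p under 0.05, beside 4.9% of all genes with a p. By group, 6 of 16 receptor and mitophagy genes were called, and 1 of 15 genes of closure and fusion with lysosomes. The difference between these groups was not tested.

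Retreg1, Ccpg1, Rtn3 and Tex264 are among the receptors of the endoplasmic reticulum on the list, which may hold others. Of those named, Retreg1 fell and Ccpg1 rose at 24 h. Rtn3 at 0.01 (SE 0.04) and Tex264 at -0.10 (SE 0.06) in the authors' deposited table were not called. Retreg1, listed under its older symbol Fam134b, encodes a receptor that fragments endoplasmic reticulum sheets, and its implied mean was 976 normalised counts in ethanol and 699 in tamoxifen. In the authors' deposited table it stood at -0.48 (SE 0.10, adjusted p = 8.90e-05 in the Wald test), 71.6% of the ethanol level. Its SE was 1.57 times that of genes of similar mean. Ccpg1, a stress-induced receptor of the same organelle, rose by 0.27 in the authors' deposited table (SE 0.09, adjusted p = 0.0283 in the Wald test), to 121%. Ccpg1 shares 42.9% of its exon bases with other gene models on the same strand and 28.9% with Pigb on the opposite strand, so its counts are uncertain.

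Among the called genes of the receptor group not yet described, Tollip, a ubiquitin-binding adaptor, had the smallest p of all related genes. Its implied mean was 1668 normalised counts in ethanol and 1314 in tamoxifen, and it stood at -0.34 in the authors' deposited table (SE 0.05, adjusted p = 1.28e-11 in the Wald test). Calcoco1 rose by 0.29 in the authors' deposited table (SE 0.06, adjusted p = 0.000135 in the Wald test), from an implied 963 to 1180 normalised counts. At 12 h Calcoco1 stood at 0.37 in the authors' deposited table (SE 0.12, adjusted p = 0.17 in the Wald test). Wdfy3, a large scaffold of aggregate clearance, rose by 0.14 (SE 0.05, adjusted p = 0.0420 in the Wald test) in the authors' deposited table. Ncoa4, the receptor of ferritin, stood at -0.18 in the authors' deposited table (SE 0.06, adjusted p = 0.0497 in the Wald test), and it stands outside the naming rule. Wdfy3 and Ncoa4 lost the call when p-values were adjusted over every gene with a p (adjusted p = 0.0569 and 0.0673 in the Wald test).

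Among kinases and brakes, Rubcn, listed as 1700021K19Rik, encodes Rubicon, an inhibitor of the lipid kinase complex. Its implied mean was 1245 normalised counts in ethanol and 1024 in tamoxifen at 24 h, and it stood at -0.28 in the authors' deposited table (SE 0.06, adjusted p = 1.97e-05 in the Wald test). Transcripts of 3 BCL2 family proteins known to bind Beclin 1 were on the list. Bcl2 rose by 0.35 in the authors' deposited table (SE 0.11, adjusted p = 0.0120 in the Wald test), and Mcl1 stood at -0.19 in the authors' deposited table (SE 0.05, adjusted p = 0.00183 in the Wald test). Bcl2l1 was not called, at -0.10 in the authors' deposited table (SE 0.04, adjusted p = 0.0981 in the Wald test). Sesn3, a sestrin that restrains the growth kinase mTORC1, rose by 0.32 in the authors' deposited table (SE 0.08, adjusted p = 0.00137 in the Wald test). The other sestrins on the list, Sesn1 at -0.16 (SE 0.16) and Sesn2 at -0.02 (SE 0.09), were not called at 24 h. Mtor itself was not called, at 0.02 (SE 0.07) in the authors' deposited table.

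In the remaining groups 3 genes were called. Sh3glb1, a membrane-bending partner of the Beclin 1 complex, stood at -0.16 in the authors' deposited table (SE 0.06, adjusted p = 0.0486 in the Wald test, and 0.0658 when adjusted over every gene with a p). Vamp8, a SNARE of autophagosome fusion, stood at -0.16 in the authors' deposited table (SE 0.06, adjusted p = 0.0287 in the Wald test). Foxo4, a forkhead transcription factor, rose by 0.37 in the authors' deposited table (SE 0.11, adjusted p = 0.0152 in the Wald test). Its relatives Foxo1, at -0.01 (SE 0.06), and Foxo3, at -0.03 (SE 0.07), were not called at 24 h. Tfeb and Tfe3, named after their values were seen as the factors that bind the E-box above, were not called at 24 h, with log2 folds in the authors' deposited table of 0.08 (SE 0.24) for Tfeb and of -0.05 (SE 0.07) for Tfe3.

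**Figure D5:**
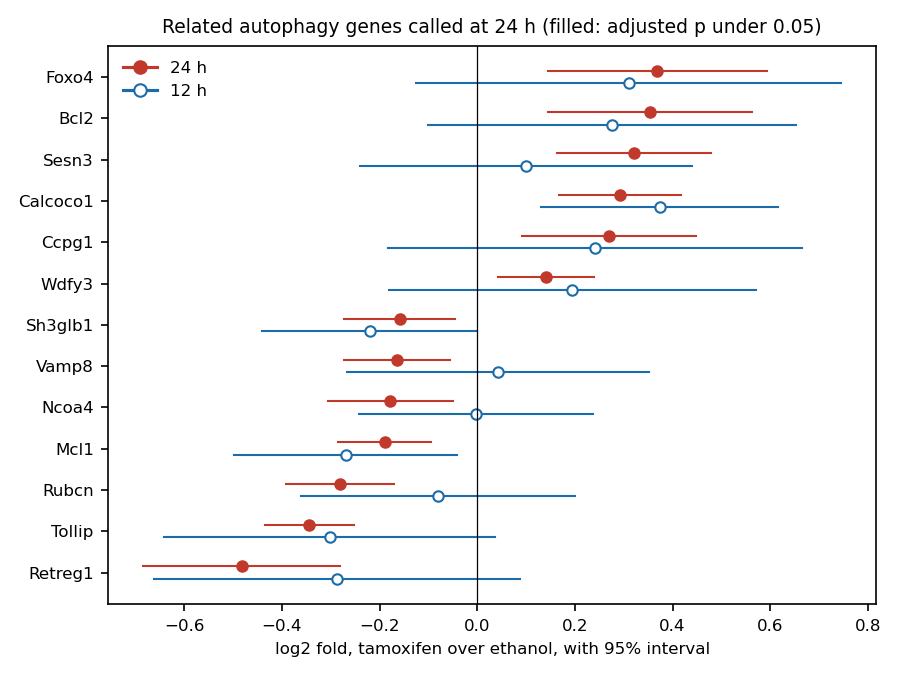
Log2 fold of tamoxifen over ethanol with 95% interval (x axis) of the 13 related autophagy genes called at 24 h, at 24 h (red) and 12 h (blue); filled points passed an adjusted p under 0.05. At 24 h 6 genes lie above and 7 below 0, and the wider 12 h intervals hold no call.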

How the data were processed

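Per the labels' protocols the libraries were made with TruSeq RNA kit v2, a kit without strand marking, and read single-end per the design text. The submitters' processing notes name HISAT2, mm10 and DESeq2 with neither version nor role. How reads were counted, and on which annotation, is not given in the sources used here. Samples were grouped by agent and time from their titles. No 12 h ethanol replicate 2 is listed among the 15 samples.

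The authors deposited 1 table per time. Per the file headers these hold the mean normalised count (baseMean, a signal scaled by the authors), the log2 fold change, its standard error, the Wald score and, raw and adjusted, its p-value. Depth is known only as the summed mean counts. The planned count test needed counts per library, so the stated fallback, the authors' Wald test at an adjusted p under 0.05, was used.

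Python 3.11.15 with pandas 2.3.3, numpy 2.4.6, scipy 1.17.1 and, for figures, matplotlib 3.10.9 gave 95% intervals, implied group means, levels per kb of GENCODE exons on GRCm38 (the assembly mm10 names), SEs relative to the running median of 201 genes of similar mean, 50-base transcript words shared with other genes, and a Wald test of the difference of log2 folds between times with Benjamini-Hochberg adjustment. That test was run on simulated folds drawn with the normal, independent errors that it assumes. This checks the calculation and not whether those errors hold in these data. Alternatives were adjustment over all genes with a p, a mean of at least 50, a threshold of 0.1, centring on the median fold, and the longest transcript as the length. The members and lists were chosen with earlier results of these data known. Every member is described; of the related genes, the 12 called with the smallest p are named by rule.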

Additional observations from a re-analysis of the deposited data

How the results depend on the processing

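At 24 h the count of called members was 6 when the adjustment ran over every gene with a p, when genes with a mean of at least 50 were used alone and when folds were centred on the median, and 7 at a threshold of 0.1, where Gabarap (adjusted p = 0.0682 in the authors' Wald test) was added. At 12 h and in the difference between times the count was 0 under each alternative that was run. The related genes called at 24 h numbered 10 when adjusted over all genes, 14 with a mean of at least 50, 17 at a threshold of 0.1 and 11 when centred. Sh3glb1 and Ncoa4 had an adjusted p of 0.0658 and 0.0673 in the Wald test when adjusted over all genes, and 0.0788 and 0.0791 when centred; Wdfy3 had 0.0569 when adjusted over all genes. For these 3 genes the alternatives ended the call. Centring changed the sign of folds near 0: that of Ulk1 at 24 h became 0.0040 and that of Ncoa4 at 12 h became 0.0016. With the longest transcript in place of all exons, levels per kb changed through the annotated lengths alone. That of Atg16l1 at 12 h, for example, went from 79.4 to 204. The first 4 places were the same. No paired analysis was possible because the files hold no value per library; for the same reason no replicate could be left out. The 12 h SEs, with a median of 0.15 over the members against 0.071 at 24 h, limit what could be called at 12 h.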
